A study of Mus musculus with 12 samples.

Results

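Genes for the enzymes that attach glutathione, glucuronide or sulfate to reactive molecules, together with the glutathione peroxidases, were followed in the lungs of mice breathing low oxygen. Members were the transcript clusters (groups of array probes along 1 transcribed region) whose single platform gene symbol was a Gsta, Gstm, Gsto, Gstp, Gstt, Gstz, Gstk, Mgst, Gpx, Ugt1a, Ugt2 or Sult symbol with a number. This gave 59 genes of the 22180 named genes on the array, and each had 1 such cluster. They were 21 glutathione transferases, 8 glutathione peroxidases, 1 peroxidase pseudogene (Gpx2-ps1), 8 glucuronosyltransferases of the UGT2 family and 21 sulfotransferases. No Gstz or Ugt1a gene had a cluster of its own.

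C57BL/6J mice were housed for 3 days either in a normobaric hypoxia chamber at 10% oxygen (hypoxia, n=6) or in room air at 21% oxygen (normoxia, n=6). RNA of the left lung lobe was hybridized with 1 array per mouse. The labels give the strain but neither age nor sex. In the study's methods the purchased C57BL/6J mice are age-matched males, and an age is stated there only for longer exposures. The chamber and the oxygen level cannot be told apart, since normoxic mice were kept in the animal unit.

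Glutathione transferases join the thiol of glutathione to electrophiles such as epoxides and aldehydes, which makes them soluble and ready for export. Glutathione peroxidases use glutathione or other thiols to reduce hydrogen peroxide and lipid peroxides. UDP-glucuronosyltransferases add glucuronic acid from UDP-glucuronate, and sulfotransferases add sulfate from the donor PAPS, both to drugs, hormones and other small molecules. In the lung, conjugation is best known from the airway lining, where club cells metabolize inhaled chemicals, and many of these genes carry antioxidant response elements bound by NRF2.

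Of the 59 genes, 1 rose and 1 fell in hypoxia. Gsta3, an alpha-class glutathione transferase that in mice conjugates the aflatoxin epoxide, was 1.43-fold lower. Gpx8, a peroxidase of the endoplasmic reticulum membrane, was 1.20-fold higher. The remaining 57 were not called. The test was limma on log2 levels, two-sided, with Benjamini-Hochberg adjustment over 41155 clusters and a threshold of 0.05. A difference of 1 on the log2 scale is a change of 2-fold. Among all named genes, 6.03% were called, 3.90% as higher and 2.14% as lower, so that the count of 1 in each direction among 59 genes was not above the background. The median log2 fold change of the 59 genes was 0.02, beside -0.01 for all named genes. The change was above 0 for 33 and below 0 for 26 of the 59, and for 10285 and 11895 of all named genes.

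The stretches upstream of both called genes are shown with 1 window of Mgst1 that holds the same type of antioxidant core as Gsta3. Each is the 250 bases before a transcription start in RefSeq (GRCm38.p6), read 5' to 3' on the gene's strand. Capitals mark the core of the antioxidant response element (TGACNNNGC, either strand) in Gsta3 and Mgst1, and the core of the hypoxia response element (ACGTG, either strand) in Gpx8. The windows are Gsta3 at chr1:21240335-21240584 on the plus strand, Mgst1 at chr6:138140277-138140526 on the plus strand and Gpx8 at chr13:113046389-113046638 on the minus strand.
Gsta3: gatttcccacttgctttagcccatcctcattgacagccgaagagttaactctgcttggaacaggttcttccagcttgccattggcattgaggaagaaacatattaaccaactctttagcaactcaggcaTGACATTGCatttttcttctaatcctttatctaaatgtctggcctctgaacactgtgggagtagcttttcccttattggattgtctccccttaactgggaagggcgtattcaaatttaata
Mgst1: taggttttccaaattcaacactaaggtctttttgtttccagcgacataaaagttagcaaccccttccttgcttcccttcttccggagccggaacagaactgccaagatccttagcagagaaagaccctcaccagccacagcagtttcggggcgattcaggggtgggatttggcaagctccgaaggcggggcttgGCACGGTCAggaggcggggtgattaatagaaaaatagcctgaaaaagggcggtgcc
Gpx8: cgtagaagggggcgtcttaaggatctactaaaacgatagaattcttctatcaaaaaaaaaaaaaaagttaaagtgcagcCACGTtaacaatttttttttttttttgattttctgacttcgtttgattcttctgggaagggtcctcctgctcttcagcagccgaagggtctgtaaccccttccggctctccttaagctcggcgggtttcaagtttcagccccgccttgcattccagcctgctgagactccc
The antioxidant core begins 121 bases before the start of Gsta3 and 56 bases before that of Mgst1, and the hypoxia core begins 171 bases before that of Gpx8. Of the 58 genes other than the pseudogene, 52 had at least 1 window in the table, with 66 windows in all. TGACNNNGC was found in 3 of these 66 windows (4.55%), 1 each for Gsta3, Mgst1 and Gstm7, against 10.16% of all 32851 windows. Another window of Mgst1 and another of Gstm7, at different starts, held no such core. ACGTG was found in 10 windows (15.15%, against 16.57%), including those of Gpx8, Gpx1 and all 3 pi-class genes. The xenobiotic response element core GCGTG, which shares CGTG with ACGTG, was found in 13 windows (19.7%, against 28.16%), both strands searched. These matches describe letters in a window and not bound sites.

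The alpha class holds the called fall. Gsta3 (cluster 17211405) lay between 9.16 and 9.49 in normoxia (median 9.29) and between 8.71 and 8.94 in hypoxia (median 8.79). Every hypoxic mouse was below every normoxic mouse. Its mean was 9.32 ± 0.113 (SD, n=6) in normoxia and 8.80 ± 0.0808 in hypoxia, which gave a log2 difference of -0.51 (SE 0.0638, 95% interval -0.65 to -0.38, limma adjusted p=0.000431). Gsta4, which conjugates the lipid aldehyde hydroxynonenal, ranged from 9.89 to 10.14 in normoxia (median 10.02) and from 9.76 to 10.17 in hypoxia (median 9.95). Its groups overlapped, and the log2 fold change was -0.08 (95% interval -0.25 to 0.08, limma adjusted p=0.677).

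Groups that did not overlap were found for 3 of the 59 genes. All 6 hypoxic mice were lower for Gsta3 and Gstm1, beside 2.15% of named genes, and all 6 were higher for Gpx8, beside 3.55%. Gsta3 was the only member called lower among the 24 members whose mean level lay above the median of all clusters (5.91), beside 3.45% of the named genes above that level.

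No mu-class gene was called. Gstm1, a broad-range transferase of the cytosol, lay between 8.03 and 8.17 in normoxia (median 8.06) and between 7.69 and 8.02 in hypoxia (median 7.90). The hypoxic mice were all lower, the closest pair being 8.03 and 8.02, and spread more widely, with an SD of 0.139 against 0.0549. The log2 fold change was -0.20 (SE 0.0666, 95% interval -0.35 to -0.06) and did not pass the threshold (limma adjusted p=0.127). Gstm2, its neighbour on chromosome 3, lay between 9.54 and 9.68 in normoxia (median 9.60) and between 9.67 and 9.75 in hypoxia (median 9.70). A single normoxic mouse, at 9.68, reached the hypoxic range, and the difference had the opposite sign (0.10, limma adjusted p=0.295). Gstm4, Gstm3, Gstm6 and Gstm7 lie in the same cluster of genes, and over the 6 neighbours 3 log2 fold changes were above 0 and 3 below, with a range from -0.20 to 0.15.

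**Figure D1:**
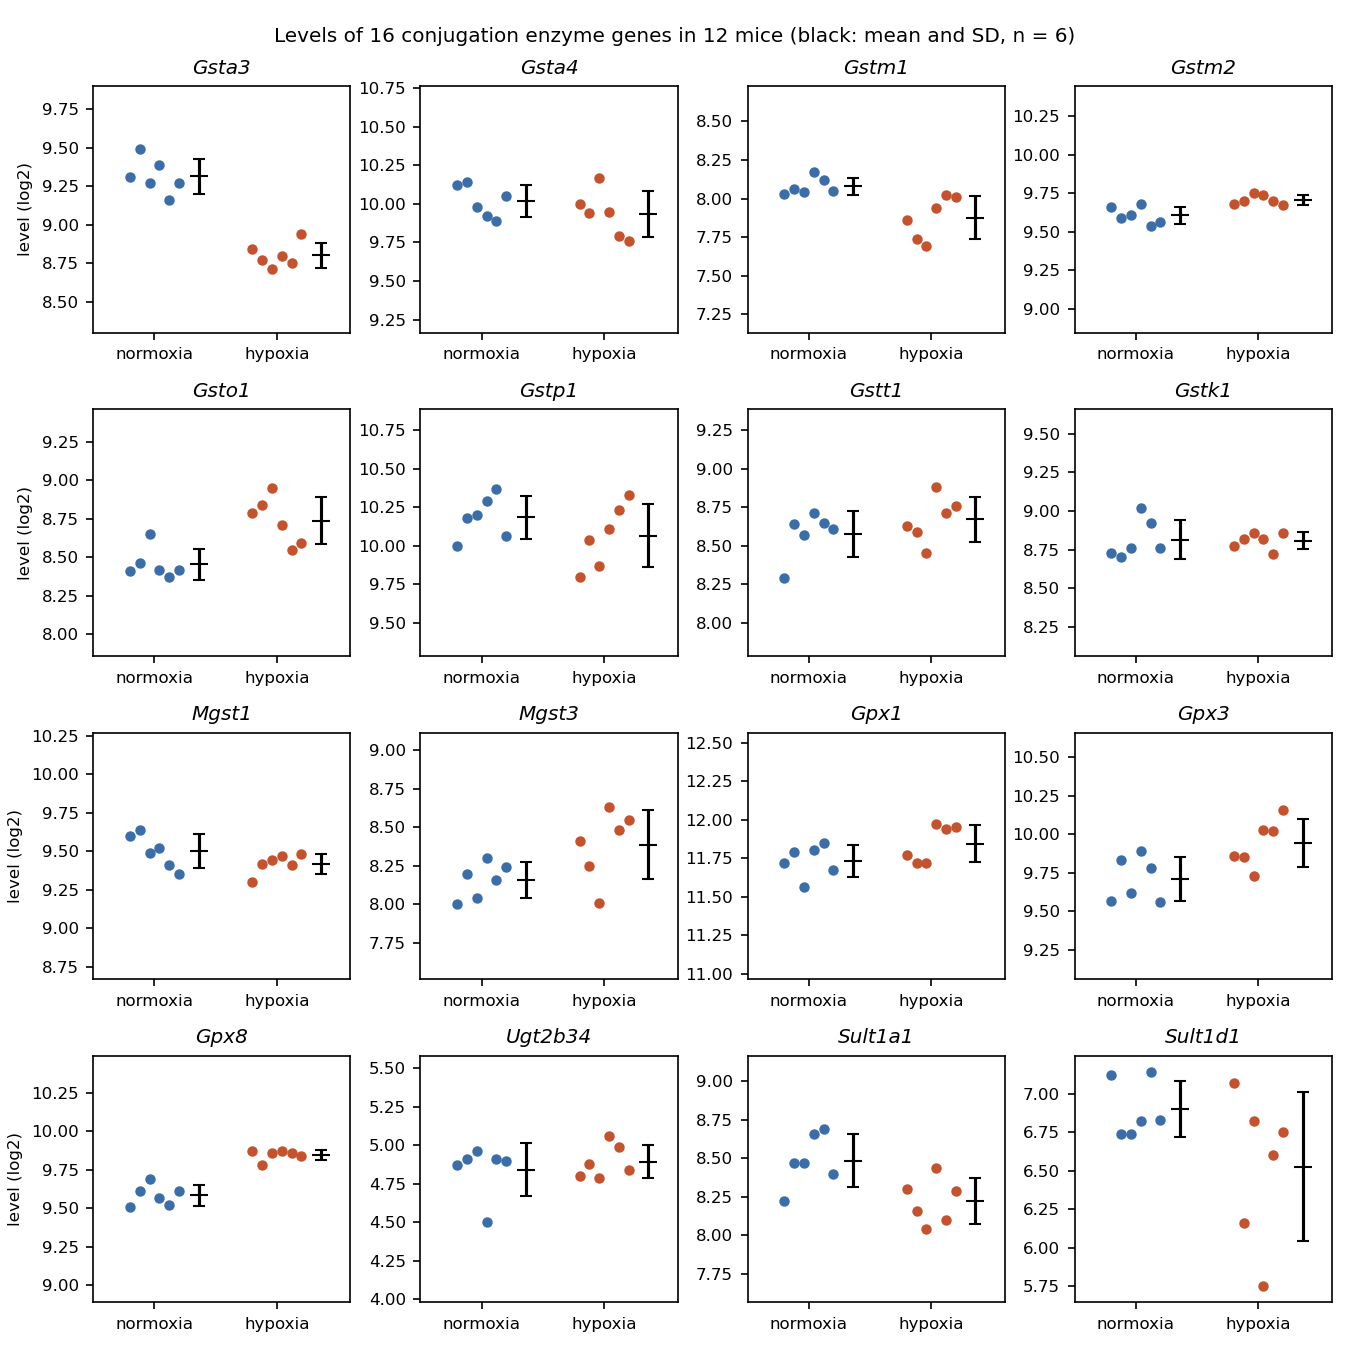
Log2 level (vertical axis, each panel spanning the same number of log2 units) of 16 conjugation enzyme genes in each normoxic mouse (blue) and hypoxic mouse (orange), points in order of mouse number, with the mean and SD in black (n=6). Gsta3 in hypoxia (8.71 to 8.94) lies below all normoxic mice, Gpx8 in hypoxia (9.78 to 9.87) lies above them, and Sult1d1 in hypoxia spreads from 5.75 to 7.07.

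No omega-class gene was called. Gsto1, which reduces dehydroascorbate and removes glutathione from proteins, lay between 8.37 and 8.65 in normoxia (median 8.42) and between 8.55 and 8.95 in hypoxia (median 8.75). The groups overlapped because of 1 normoxic mouse at 8.65, the other 5 being at 8.46 or below. The log2 fold change was 0.28 (SE 0.0766, 95% interval 0.12 to 0.45, limma adjusted p=0.057). Without that mouse it was 0.32 (limma adjusted p=0.0335), and without hypoxic mouse 5 it was also 0.32 (limma adjusted p=0.0381). Only these 2 of the 12 runs without 1 mouse passed. Over the 12 runs the log2 fold change went from 0.24 to 0.32 (limma adjusted p from 0.0335 to 0.119). Gsto2, next to Gsto1 on chromosome 19, had a log2 fold change of 0.13 (limma adjusted p=0.412).

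The pi, theta and kappa classes held no call. Gstp1, a transferase of many epithelia, lay between 10.00 and 10.37 in normoxia and between 9.80 and 10.33 in hypoxia, with a log2 fold change of -0.12 (limma adjusted p=0.613). Gstp2 and Gstp3 gave -0.13 and -0.12, and all 3 lie next to each other on chromosome 19. A further cluster is annotated to both Gstp1 and Gstp2. In the theta class, Gstt1, which acts on small halogenated compounds, had a log2 fold change of 0.09 (limma adjusted p=0.676), and the other members gave -0.19 (Gstt2), -0.06 (Gstt3) and 0.13 (Gstt4). Gstk1, the transferase of mitochondria and peroxisomes, lay between 8.70 and 9.02 in normoxia and between 8.72 and 8.86 in hypoxia, with a log2 fold change of -0.01 (95% interval -0.14 to 0.13, limma adjusted p=0.975). Its sign turned when single mice were left out or the arrays were shifted to a common median.

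The microsomal transferases are membrane proteins with both transferase and peroxidase activity. Mgst1, with 1 window shown above, lay between 9.35 and 9.64 in normoxia and between 9.30 and 9.48 in hypoxia. Its log2 fold change was -0.08 (limma adjusted p=0.571), and the groups overlapped. Mgst3 lay between 8.0 and 8.30 in normoxia (median 8.18) and between 8.01 and 8.63 in hypoxia (median 8.45). Of the hypoxic mice, 4 were above all normoxic mice and mouse 3 was at 8.01. The log2 fold change of 0.23 (SE 0.0998) did not pass (limma adjusted p=0.263). Mgst2 gave 0.03.

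**Figure D2:**
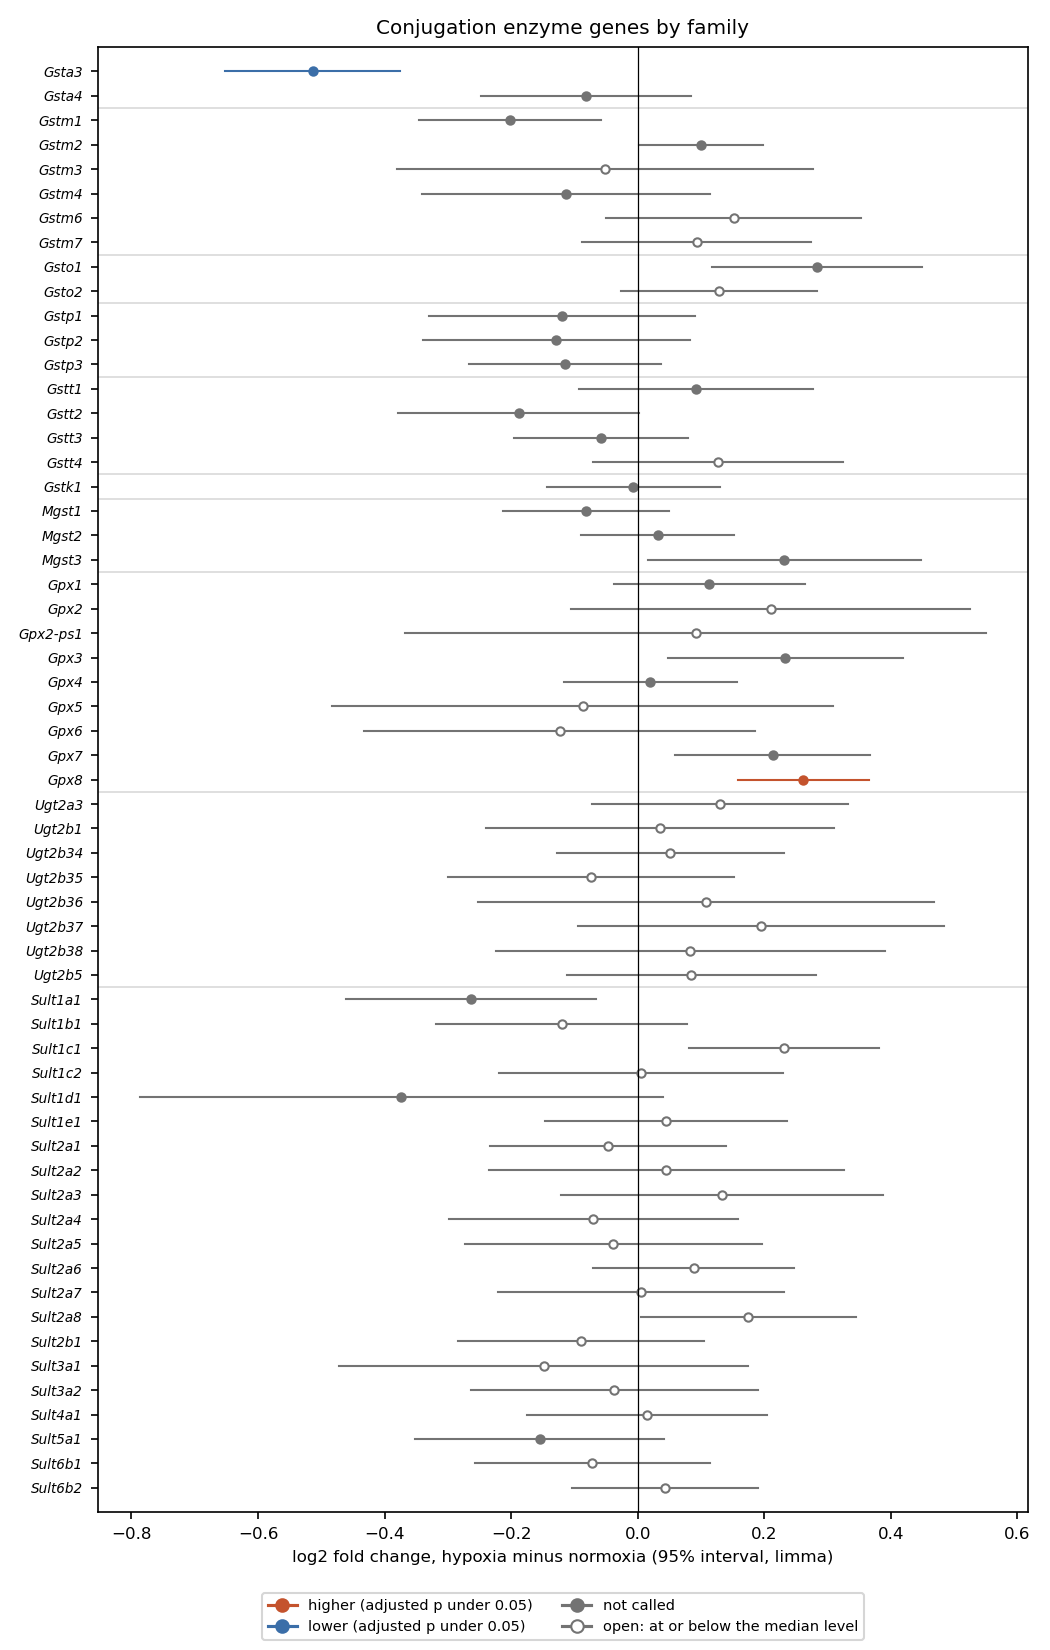
Log2 fold change (horizontal axis, hypoxia minus normoxia) with its 95% interval from limma for each of the 59 genes, grouped by family from the alpha class at the top to the sulfotransferases. Only Gsta3 (-0.51, blue) and Gpx8 (0.26, orange) pass the threshold, and open points are genes at or below the median level.

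The 8 glutathione peroxidases had a median log2 fold change of 0.16, with 6 of 8 above 0 and 1 called, the highest median among the families with more than 2 genes. Of the 8, 5 lay above the median level. Gpx8 (cluster 17296281) lay between 9.51 and 9.69 in normoxia (median 9.59) and between 9.78 and 9.87 in hypoxia (median 9.86). All hypoxic mice were above all normoxic mice, and they spread less, with means of 9.85 ± 0.0344 (SD, n=6) in hypoxia and 9.59 ± 0.0669 in normoxia. The log2 fold change was 0.26 (SE 0.0478, 95% interval 0.16 to 0.37, limma adjusted p=0.00682). With the replicate number as a block the call was lost (limma adjusted p=0.066). Gpx7, a relative in the lumen of the endoplasmic reticulum, lay between 7.06 and 7.29 in normoxia and between 7.25 and 7.58 in hypoxia. The groups overlapped at the edge, and the log2 fold change of 0.21 did not pass (limma adjusted p=0.13).

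None of the remaining peroxidase genes was called. Gpx3, the secreted plasma enzyme, lay between 9.56 and 9.89 in normoxia (median 9.70) and between 9.73 and 10.16 in hypoxia (median 9.94). The groups overlapped, with a log2 fold change of 0.23 (SE 0.0858, limma adjusted p=0.176). Gpx1, the enzyme of cytosol and mitochondria, lay between 11.56 and 11.85 in normoxia and between 11.72 and 11.97 in hypoxia (0.11, limma adjusted p=0.471). Gpx4, which reduces phospholipid peroxides in membranes, gave 0.02, and the epithelial Gpx2 gave 0.21 with a 95% interval from -0.10 to 0.52. Gpx2 was at or below the median level, with a mean of 5.1. Gpx5 and Gpx6, known from the epididymis and the olfactory epithelium, and the pseudogene Gpx2-ps1 were also at or below it, with log2 fold changes of -0.09, -0.12 and 0.09.

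None of the 8 UGT2 genes lay above the median level, and none was called. Their mean levels were between 2.41 and 4.87. Ugt2b34 lay between 4.50 and 4.96 in normoxia and between 4.79 and 5.06 in hypoxia, with a log2 fold change of 0.05 (limma adjusted p=0.828). The fold changes of the 8 ran from -0.07 to 0.20, with 7 above 0. They lie within the same stretch of chromosome 5, and whether these low values stand above background is unknown, since background probes were not analysed here.

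Of the 21 sulfotransferases, 3 lay above the median level and none was called. Sult1a1, the phenol sulfotransferase, lay between 8.22 and 8.69 in normoxia (median 8.47) and between 8.04 and 8.44 in hypoxia (median 8.23). The groups overlapped, with a log2 fold change of -0.26 (SE 0.0913, limma adjusted p=0.148). Sult1d1, which in mice sulfates catecholamines, lay between 6.74 and 7.14 in normoxia (median 6.83) and between 5.75 and 7.07 in hypoxia (median 6.68). Hypoxic mice 4, 2 and 5 were the lowest, at 5.75, 6.16 and 6.60, while the other 3 were within the normoxic range. The log2 fold change of -0.37 had an SE of 0.191 and a 95% interval from -0.79 to 0.04 (limma adjusted p=0.364). Sult5a1 gave -0.16. Among the 18 dim sulfotransferases, Sult1c1 had the smallest p, with a log2 fold change of 0.23 (limma adjusted p=0.0897). Without hypoxic mouse 4 it was 0.27 and passed (limma adjusted p=0.0359), and it passed in no other run without 1 mouse.

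For the 57 genes not called, the 95% interval of the log2 fold change lay within 0.5 of zero for 54 and within 0.3 for 27. The exceptions at 0.5 were Sult1d1, Gpx2 and Gpx2-ps1. An unadjusted p under 0.05 was found for 11 of the 59 genes (18.6%, against 19.5% of all named genes). Of these, 9 were among the 24 genes above the median level (37.5%, against 27.1% of named genes above it) and 2 among the other 35. Above that level the median log2 fold change was -0.07, and at or below it the median was 0.04.

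**Figure D3:**
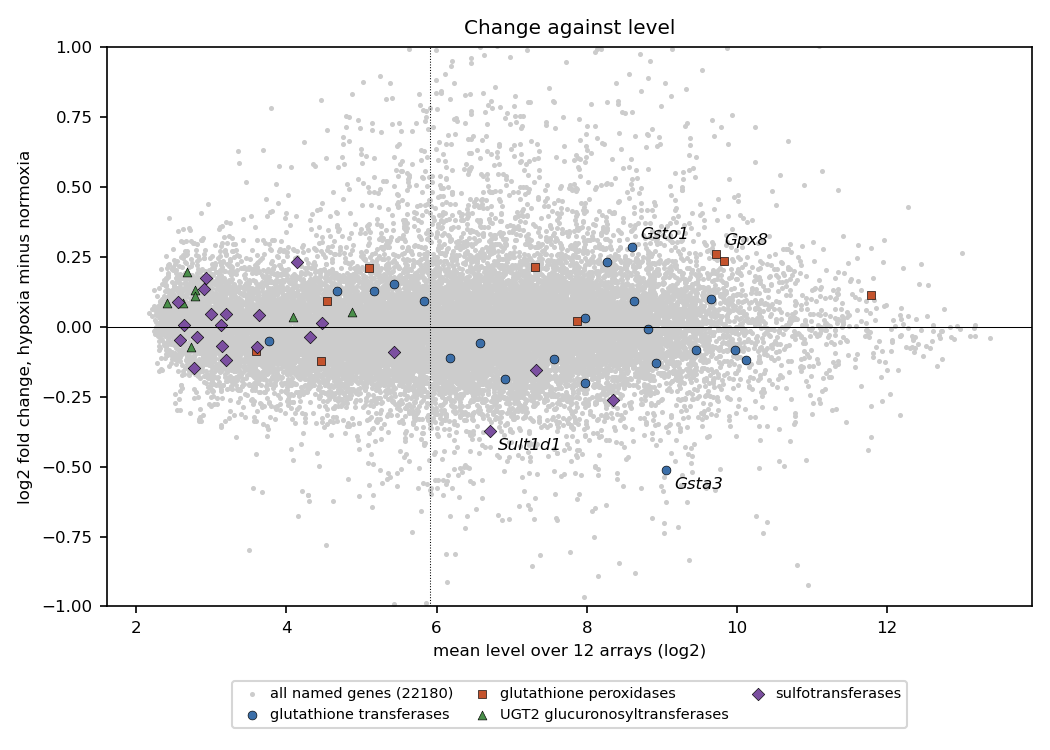
Log2 fold change (vertical axis, hypoxia minus normoxia) against the mean log2 level over the 12 arrays (horizontal axis) for 22180 named genes in grey and the conjugation enzyme genes in colour by family; the dotted line marks the median level of 5.91. All UGT2 genes and 18 of 21 sulfotransferases lie left of the line, and 83 named genes lie outside the plotted range.

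A further 9 clusters carried several symbols that include a conjugation enzyme and were outside the rule. Of these, 1 was higher and 1 lower in hypoxia, beside 1141 higher and 699 lower among all 41155 clusters. The cluster for Gstm5 and 4933431E20Rik, the former a mu-class gene, lay between 7.24 and 7.63 in normoxia and between 7.60 and 7.96 in hypoxia, with a log2 fold change of 0.39 (limma adjusted p=0.018). The groups overlapped, and the 2 genes cannot be told apart. A cluster for Gsta1, Gsta2 and 2 gene models was lower, with a log2 fold change of -0.32 (7.01 to 7.27 in normoxia, 6.73 to 7.02 in hypoxia, limma adjusted p=0.0234). Another 2 clusters for Gsta1 and Gsta2 gave 0.03 and -0.02 and were not called, with mean levels of 6.77 and 2.79, the latter far below the median level of 5.91. The 2 UGT1A clusters, annotated to 8 and to 5 UGT1A genes, gave -0.11 and -0.21 (limma adjusted p=0.409 and 0.0802). Clusters for Gstz1 with Pomt2 (-0.17), for Gstp1 with Gstp2 (-0.16) and for Ugt2a1 with Ugt2a2 (0.03) were not called.

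Several members ordered the hypoxic mice alike. Of the 24 genes above the median level, 8 had their 3 highest hypoxic values in mice 4, 5 and 6, namely Gstm1, Gstm4, Gstp1, Gstt1, Mgst3, Gpx1, Gpx3 and Gpx4. Of all 12392 named genes above that level, 10.3% had this order. These mice were singled out after the counts were seen, and neighbours such as Gstm1 and Gstm4 may not be separate measurements, so the count is a description. For Gpx1, mice 4, 5 and 6 were at 11.97, 11.94 and 11.95, and mice 1, 2 and 3 at 11.77, 11.72 and 11.72. For Gsto1 and Mgst2 the order was the reverse, with Gsto1 at 8.79, 8.84 and 8.95 in mice 1, 2 and 3 and at 8.71, 8.55 and 8.59 in mice 4, 5 and 6. The mean level of 6 measured erythroid genes was 6.00, 5.77 and 5.73 in mice 1, 2 and 3 and 6.21, 6.33 and 6.21 in mice 4, 5 and 6, against 5.59 to 5.69 in normoxia. The mean levels of alveolar type 2 markers (11.19 to 11.28 against 11.32 to 11.36) and of endothelial markers (9.34 to 9.47 against 9.50 to 9.53) were likewise lower in mice 1, 2 and 3 than in mice 4, 5 and 6. Ciliated cell markers went the other way, at 8.028 to 8.285 in mice 1, 2 and 3 and 7.964 to 8.02 in mice 4, 5 and 6. The remaining marker lists did not separate these mice, and the lists given here were picked after their values were seen. The part of these markers in the results was not tested. The labels give no batch for these mice.

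Many members are neighbours in the genome, and 40 of the 59 fall into 9 groups with gaps of at most 1 Mb. The 3 pi-class genes on chromosome 19 were all below 0 and both omega-class genes on the same chromosome were above 0. On chromosome 5, the 8 UGT2 genes lie with Sult1b1, Sult1d1 and Sult1e1, and 8 of these 11 genes were above 0. Neighbours that resemble each other in sequence may not be separate measurements, and the resemblance of members was not measured here.

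Other genes of the pathway were examined in lists. These lists held 117 different measured genes, of which 4 were called higher and 3 lower. Beside these counts, 3.90% of all named genes were called higher and 2.14% lower. Whether the lists held more calls than this background was not tested. Of 24 measured genes of glutathione synthesis and recycling, none was called (median 0.06). Gclc and Gclm, the subunits of the rate-limiting enzyme of glutathione synthesis, gave 0.08 and 0.11, and the reductase Gsr gave 0.11. Chac1, which degrades glutathione, had the smallest p of the list (-0.31, unadjusted p=0.0128, limma adjusted p=0.147). Of 11 genes that supply the cofactors of glucuronidation and sulfation, Ugp2 alone rose. Ugp2, which makes UDP-glucose, lay between 8.76 and 8.91 in normoxia and between 9.01 and 9.08 in hypoxia (0.20, limma adjusted p=0.02), with no overlap. Of 19 genes for transport and hydrolysis of conjugates, only the organic anion transporter Slco2b1 was called, as lower (-0.24, limma adjusted p=0.0441).

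Among 25 related transferases outside the symbol rule, 2 rose and 1 fell, beside 6.03% of all named genes called in either direction. Nnmt, which methylates nicotinamide, lay between 5.26 and 5.80 in normoxia and between 6.41 and 6.56 in hypoxia. Every hypoxic mouse was above every normoxic mouse, with a log2 fold change of 0.84 (SE 0.0835, limma adjusted p=8.56e-05). Hpgds, the glutathione-dependent prostaglandin D synthase and a sigma-class transferase, lay between 4.51 and 5.04 in normoxia and between 5.19 and 5.53 in hypoxia (0.50, limma adjusted p=0.00641). Inmt, which methylates indoleamines, lay between 11.77 and 12.24 in normoxia and between 11.30 and 11.73 in hypoxia (-0.44, limma adjusted p=0.0118). None of these 3 genes had overlapping groups.

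Of 26 genes regulated by or regulating NRF2, 1 rose and 1 fell. Akr1b8, an aldo-keto reductase, was higher (5.47 to 5.75 against 5.79 to 6.22, 0.37, limma adjusted p=0.0178). Ephx1, the microsomal hydrolase that opens epoxides with water, was lower (9.25 to 9.48 against 8.83 to 9.16, -0.35, limma adjusted p=0.00833). Nfe2l2, the gene of NRF2, gave -0.03, and its usual targets Nqo1 and Hmox1, named after their values were seen, gave -0.28 and 0.24 (limma adjusted p=0.318 and 0.19). Of 18 xenobiotic receptor genes and their targets, none was called, with a median of -0.11 and 15 below 0. Among the 22180 named genes, 11895 were below 0. Cyp1a1, a target of the aryl hydrocarbon receptor, gave -0.40 (limma adjusted p=0.0665), and Cyp1b1, another target, gave 0.32 (limma adjusted p=0.236).

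**Figure D4:**
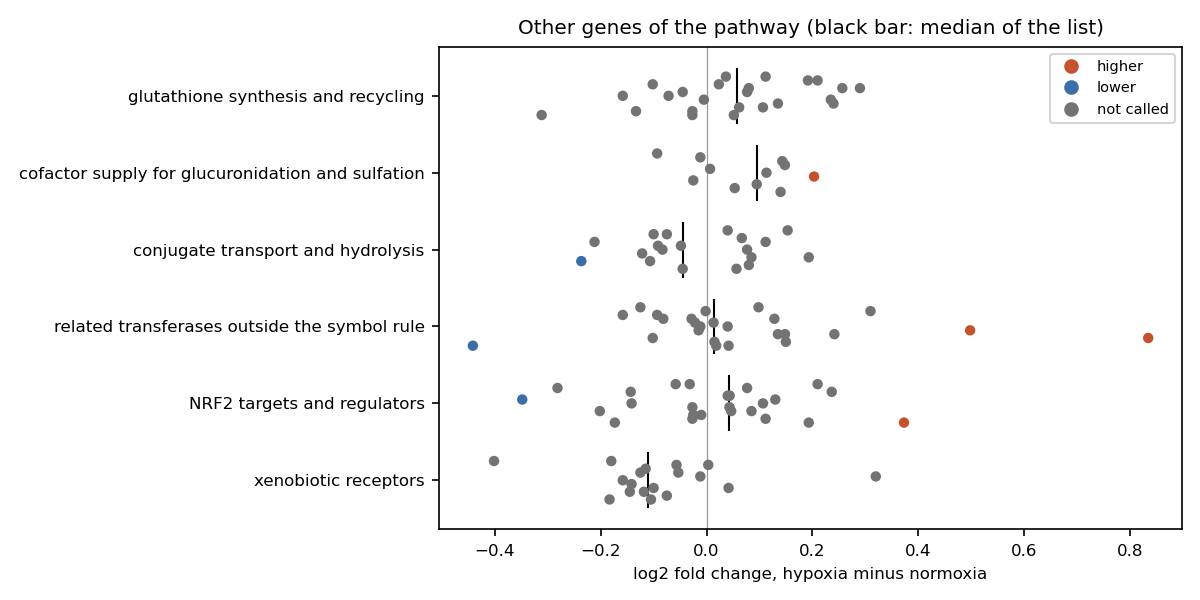
Log2 fold change (horizontal axis, hypoxia minus normoxia) of each measured gene in 6 lists related to conjugation, with called genes in colour and the median of each list as a black bar. The called genes are Nnmt (0.84), Hpgds (0.50), Akr1b8 (0.37) and Ugp2 (0.20) as higher and Inmt (-0.44), Ephx1 (-0.35) and Slco2b1 (-0.24) as lower.

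In whole lung, fewer cells of a type and less RNA per cell cannot be told apart, so the levels of marker genes are given beside the members. Lung markers were present, with mean levels of 13.37 for Sftpc, 13.16 for Scgb1a1, 11.89 for Ager and 10.69 for Pecam1. Club cells express many conjugation enzymes. Of their 12 markers none was called higher and 2 were called lower, Scgb1c1 (-0.35, limma adjusted p=0.00767) and Cyp2f2 (-0.32, limma adjusted p=0.0275), both named after their values were seen. The list as a whole did not lean to 1 side, with 6 log2 fold changes above 0, 6 below and a median of 0.0008. The largest rises, Chad (0.34, limma adjusted p=0.109) and Hp (0.32, limma adjusted p=0.105), were not called. The defining club cell marker Scgb1a1 gave -0.00 (95% interval -0.11 to 0.10), and the log2 of the summed levels of the 12 markers was 14.93 to 15.13 in normoxia and 14.91 to 15.07 in hypoxia. Scgb1a1 lay near the highest mean level of any cluster (13.51), and such a sum is weighted towards the brightest markers. The part of these markers in the fall of Gsta3 was not tested.

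The markers of smooth muscle cells and pericytes rose for 9 of 11 genes, with summed levels of 12.06 to 12.31 in normoxia and 12.87 to 13.19 in hypoxia. Fibroblast markers rose for 4 and fell for 2 of 12 genes (13.66 to 13.85 against 13.53 to 13.76), and Inmt, which fell, is 1 of them. Their mean level, which weights the 12 genes equally, went the other way, from 9.07 to 9.19 in normoxia and from 9.27 to 9.41 in hypoxia. Goblet and mucous cell markers rose for 9 of 10 genes (11.16 to 12.08 against 12.69 to 13.66), and endothelial markers fell in 6 of 12 (13.68 to 13.85 against 13.47 to 13.60). The part of these shifts in the change of Gpx8 or any other member was not tested. Of the remaining lists, ciliated cells had 1 lower of 12, alveolar type 2 cells 2 lower of 11 and alveolar type 1 cells 1 higher and 1 lower of 11. Alveolar macrophages had 1 lower of 9, monocytes and interstitial macrophages 4 higher of 9, and erythroid cells 3 higher of 6. Markers of liver and of heart muscle had no call among 8 each. Beside these counts, 718 of the 12392 named genes above the median level were called higher and 427 lower. Most erythroid and liver markers were at or below that level, 4 of 6 and 7 of 8. For heart muscle the summed levels ranged from 11.70 to 12.55 in normoxia and from 11.28 to 12.82 in hypoxia.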

How the data were processed

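Left lung lobe RNA of 6 hypoxic and 6 normoxic mice was hybridized to whole-transcript arrays, 1 per mouse. The authors made the deposited values with RMA in the Affymetrix Expression Console, so they are background-corrected, normalized and summarized log2 levels; versions of these tools are not stated in the labels or methods read here. RMA pulls arrays to 1 distribution, so a change shared by most genes would not be seen. The number of arrays limits the precision, and array medians lay between 5.89 and 5.95.

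Of 41345 rows, 190 control rows were left out. Each cluster's symbol was read from the platform annotation and updated by Entrez gene ID with the GRCm38.p6 gene table, with 23521 clusters carrying 1 symbol, 1820 several and 15814 unnamed here. Hypoxia was compared with normoxia with the limma package (version 3.58.1, R 4.3.3; lmFit, eBayes, all 12 arrays, no covariate), two-sided, with Benjamini-Hochberg adjustment over 41155 clusters. Dim clusters were kept, and no fold was required. The script was tested on simulated data. Motifs and tables used Python 3.11.15 and pandas 2.3.3, and plots matplotlib 3.10.9. Proteins were not compared here.

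Named with values are the called members, the member of highest mean level in each family, the 3 largest rises and falls among members above the median level that were not called, and of each other list the called genes (at most 4), or else the gene of smallest p. Genes outside this rule (among them Gpx7, Gsto2, Sult1c1 and the values of single family members) were added after their values were seen. The members, lists and tests were chosen with earlier results of these data known. Nothing in the labels says that replicate numbers mark a shared litter or day. Alternatives were other tests, normalizations, filters and thresholds, the replicate number as a block, and each mouse left out in turn.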

Additional observations from a re-analysis of the deposited data

Results flagged for a closer look

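Among 32 groups of 6 values (the 16 genes of the plot of levels in each group), 4 held a single value far from the other 5 by Dixon's test, which chance does in about 1 of 20 groups. In normoxia, mouse 3 stood high for Gsto1 at 8.65, with the others between 8.37 and 8.46. Mouse 1 stood low for Gstt1 at 8.29, with the others between 8.57 and 8.71. Mouse 4 stood low for Ugt2b34 at 4.50, with the others between 4.87 and 4.96. In hypoxia, mouse 2 stood low for Gpx8 at 9.78, with the others between 9.84 and 9.87. Over all 59 genes, 9 of 118 groups held such a value, and the 5 further ones belong to genes at or below the median level.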

How the results depend on the processing

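Gsta3 was called under all 20 alternatives (log2 fold change -0.54 to -0.48, limma adjusted p from 0.000119 to 0.0102). Gpx8 was called in all 12 runs without 1 mouse (limma adjusted p from 0.00599 to 0.0188) and lost its call only with the replicate number as a block. The count of members called higher, 1 in the main analysis, was 2 with a variance trend and robust fit, with dim clusters left out (24 members tested), with arrays shifted to a common median, and with adjustment over 1 cluster per gene, each by adding Gsto1 (limma adjusted p=0.0344, 0.0248, 0.0403 and 0.0422). It was 0 with the replicate block, 3 at an adjusted p under 0.1, and 1 to 2 without single mice. With the 9 clusters of several symbols, added after seeing the data, the counts were 2 higher and 2 lower of 68. Groups all lower in hypoxia went from 2 genes to 1 with the median shift, and groups all higher ranged from 1 to 2 without single mice. The replicate block changed the calls over all clusters from 1141 higher and 699 lower to 682 and 279. Without single mice they were 901 to 987 and 463 to 598, the lowest count of lower calls being without hypoxic mouse 2. Same-numbered mice correlated between -0.02 and 0.12 in their deviations, and only number 4 correlated best with its own partner. These correlations cannot decide whether replicate numbers mark a shared day, litter or array batch. The log2 fold change of Gstk1 turned to 0.0133 with the median shift and ranged from -0.0297 to 0.0343 without single mice, and that of Ugt2b34 ranged from -0.0167 to 0.0753. For the sulfotransferases the median was -0.26 with dim clusters left out, against -0.04, since only 3 genes remained. The calls of the 6 related lists ranged from 3 to 6 higher and from 2 to 4 lower. No member had a second cluster, so a choice between clusters could not be run. Limits of these arrays are the 35 members at or below the median level, with a median SE of 0.104 against 0.0765 above it for genes not called, and clusters annotated to several genes.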
